A study of Mus musculus with 6 samples.

Results

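The comparison described here set the livers of Fah mice against the livers of FCR mice, matched by drug regimen, and used all 6 arrays of the 6 in the study as 3 pairs. Fah mice carried the Fah_del_tm1Mgo allele, which takes away fumarylacetoacetate hydrolase, the enzyme that ends the tyrosine breakdown pathway. FCR mice carried the same Fah allele together with Rag2_del_tm1Fwa and the common gamma chain allele del tm1Wjl, so the Fah defect was shared by all 6 livers and the genotypes differed in Rag2 and Il2rg. The labels gave both genotypes a BL6 strain background and no age or sex. Each genotype had 1 array on continuous NTBC (100%, 7.5 µg/ml in the drinking water), 1 labelled off and 1 labelled 2xoff/on (called cycled here). The labels record 2 cycles of NTBC withdrawal and supply for the off and the cycled livers alike, so off cannot be read as a single withdrawal. The Fah livers were labelled healthy liver (continuous), tumor (off) and tumor (cycled), and the FCR livers normal liver (continuous), inflamed liver (off) and inflamed liver (cycled). Genotype and the tumour label therefore cannot be told apart in the off and cycled pairs, and the continuous pair was the pair with no tumour. Nothing in the labels says whether an array held RNA of 1 animal or a pool, or in which phase the cycled livers were taken. The p-values measure only the spread between these 3 pairs, shared in part across genes by the fit, and that spread may be technical.

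NTBC blocks an early step of tyrosine breakdown and so keeps the toxic metabolites that build up without Fah from forming; when it is withdrawn, hepatocytes are injured. Rag2 is needed to cut and join antigen receptor genes, so mice without it make no mature T or B cells. Il2rg encodes the common gamma chain shared by the receptors for several interleukins, including interleukin-7 and interleukin-15, and mice without it also lack natural killer (NK) cells. The study's title names adaptive immunity in hepatic damage and liver cancer as its subject, and the design text names an enrichment analysis of Fah tumour against FCR liver. A difference is given below as Fah minus FCR, so that a positive value means more signal where Rag2 and Il2rg were intact.

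Total liver RNA was hybridised to 6 single-colour arrays of 43379 spots each. A level is the log2 of the array's processed signal minus that array's own 75th percentile, so 0 marks a probe as bright as the 75th percentile of its array, and levels of different genes are not compared. Between 60.45% and 74.46% of spots were well above background, no spot was saturated, and the 75th percentile ranged from 363.1 to 889.5 intensity units; the number of arrays limits the precision. The first principal component held 54.1% of the variance and set the 2 livers on continuous NTBC apart from the other 4, and the second held 21.8% and set the FCR off liver apart from the other 5. All 18 measured genes on a list of hepatocyte secreted proteins were well above background on all 6 arrays.

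Il2rg itself separated the genotypes. Its level was -3.40, -1.94 and -1.98 in the continuous, off and cycled Fah livers and -6.70, -7.60 and -7.74 in the FCR livers, where no array had it well above background. The signal was at least 9.45-fold higher in Fah (difference 4.91 ± 0.58, moderated SE, n = 3 pairs, limma adjusted p = 0.0194). This lower bound divides the mean of the brighter group by the dimmest level that counts as well above background on each array of the dim group, or by the probe's own signal there if higher, and the other lower bounds below were made the same way. Every ± given here is the moderated SE of the limma fit. It draws in the spread of other genes of like intensity and is not the SE of the 3 differences alone. Rag2 stayed below the well-above-background limit on all 6 arrays and so gave no check of its deletion. Fah, deleted in all 6 livers, read -1.62, -2.27 and -1.95 in Fah mice and -1.06, -2.85 and -0.97 in FCR mice. That difference of -0.32 ± 0.40 did not pass (adjusted p = 0.742), and the labels and file headers do not say whether the probe reads the deleted stretch.

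Of 15382 genes tested, 45 (0.293%) passed at an adjusted p under 0.05 in the paired fit, 20 higher in Fah (0.13%) and 25 lower in Fah (0.163%). All 45 had the same direction at all 3 regimens, against 13.1% of all tested genes that were higher in Fah at all 3 and 24.6% that were lower, and all 45 differed by more than 2-fold at all 3, against 0.67% of all genes higher and 0.722% lower by that much. The continuous pair, where neither liver was labelled a tumour, was included in this. Passing over the same 3 differences favours genes with 1 sign and large gaps, so these shares describe the 45 and support nothing. Their median size was 3.30 in the continuous pair, 3.39 in the off pair and 3.23 in the cycled pair. In 37 of the 45 the 3 Fah values did not overlap the 3 FCR values, and over all genes 2.34% were separated upward and 5.82% downward. Of the 20 higher in Fah, 5 were not well above background on any FCR array and entered the test through the Fah livers alone. Likewise 3 of the 25 lower in Fah entered through the FCR livers alone. The filter favours a gap in such genes, so their p-values are descriptions. At an unadjusted p under 0.05, 1803 genes (11.7%) differed. The count rested on the off pair and on the pairing: without the off pair no gene passed, although all 45 then had an unadjusted p under 0.05 in the same direction (743 genes in all), and without regimen as a block 1 gene, Ifi202b, passed. Leaving out the continuous pair gave 1015 genes and leaving out the cycled pair 347, each including all 45. No gene passed with slide in place of regimen as the block or with dim values raised to a common floor.

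**Figure D1:**
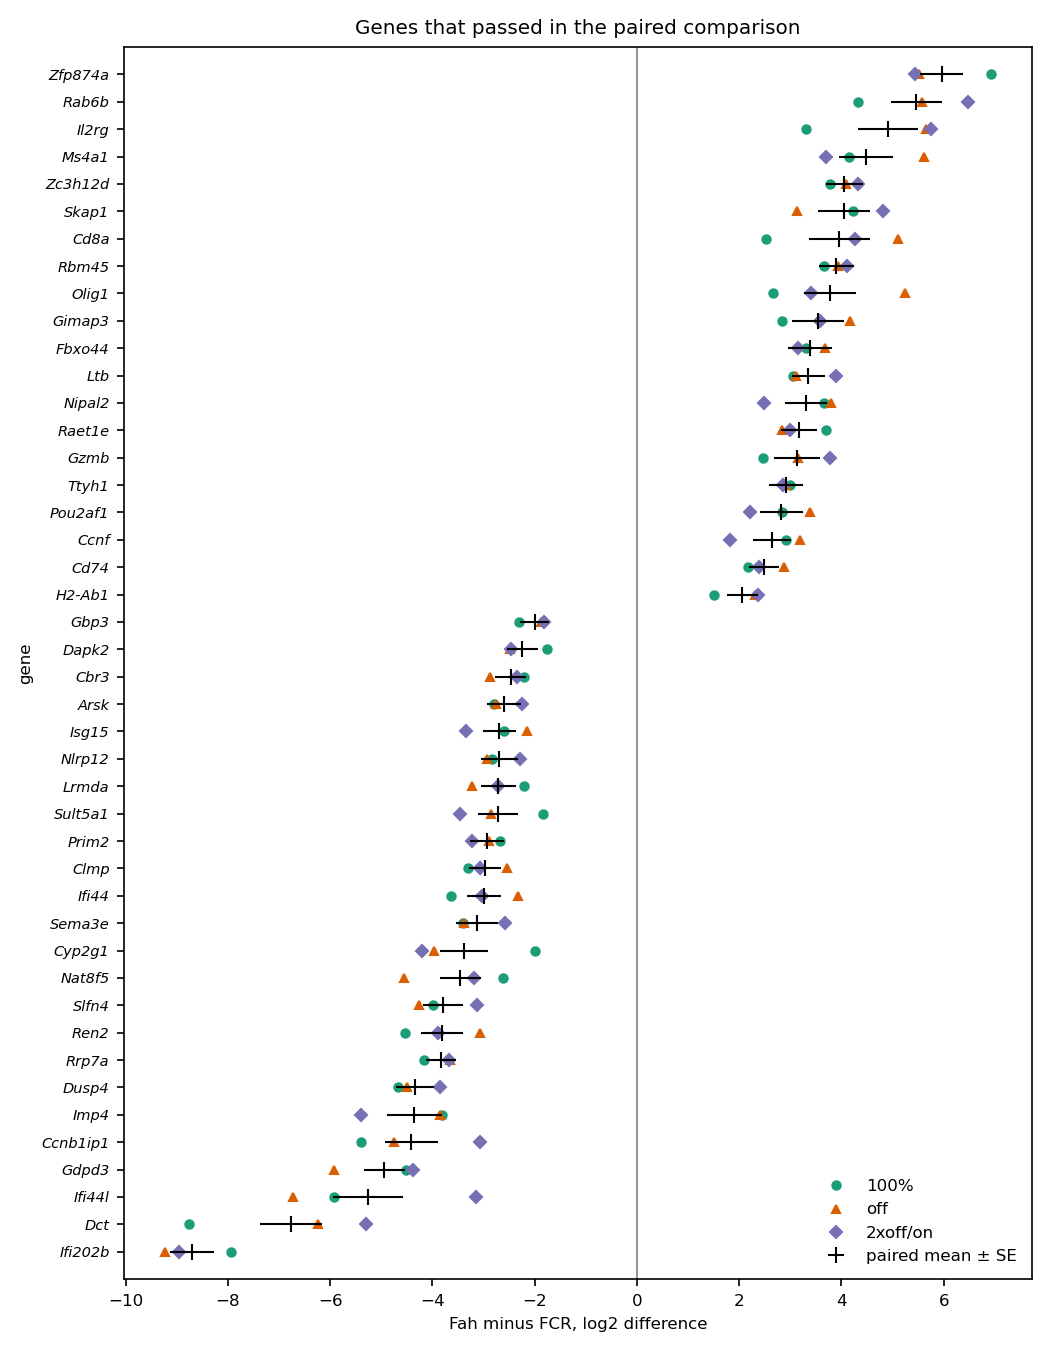
Of the 45 genes that passed in the paired comparison, 44 are shown, ordered by their difference on the x axis (Fah minus FCR, log2). Green circles, orange triangles and violet diamonds are the continuous (100%), off and cycled (2xoff/on) pairs. The black tick with its bar is the paired estimate ± moderated SE. All 3 symbols of a gene lie on the same side of 0; for genes not well above background in a genotype the position is not an exact size.

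Genes of B cells, T cells and cytotoxic cells were among the 20 that were higher in Fah liver. Ms4a1, which encodes the B cell surface protein CD20, read -3.69, -2.38 and -3.38 in the Fah livers and -7.83, -7.99 and -7.07 in the FCR livers, again with no array well above background. It was at least 5.77-fold higher in Fah (4.48 ± 0.53, adjusted p = 0.0194). Pou2af1, a coactivator of immunoglobulin gene transcription in B cells, read -3.17, -1.10 and -2.75 in Fah and -6.01, -4.50 and -4.97 in FCR (2.82 ± 0.42, adjusted p = 0.0479). It was well above background on 2 of 3 FCR arrays, so its size is not exact. The lowest Fah value of each of these genes lay above the highest FCR value. In bulk tissue, fewer cells of a type and less RNA per cell cannot be told apart.

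Among T cell and cytotoxic genes, Cd8a, a chain of the co-receptor of cytotoxic T cells, read -5.08, -2.40 and -3.13 in the Fah livers and -7.62, -7.49 and -7.39 in the FCR livers. It was well above background on 2 Fah arrays and on no FCR array, at least 4.41-fold higher (3.96 ± 0.59, adjusted p = 0.0476); its 3 probes gave differences from 1.03 to 3.96. Skap1, an adaptor that links the T cell receptor to integrin adhesion, read -3.58, -2.52 and -3.15 in Fah and -7.80, -5.65 and -7.96 in FCR (4.05 ± 0.50, adjusted p = 0.0223). Gzmb, the protease granzyme B of cytotoxic granules, read -4.28, -2.55 and -1.56 in Fah and -6.75, -5.71 and -5.33 in FCR (3.13 ± 0.45, adjusted p = 0.0408). The Fah and FCR values of all these genes stood apart, but Skap1 and Gzmb were well above background on 1 of 3 FCR arrays each, so the sizes of their differences are not exact.

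Ltb, which encodes lymphotoxin beta, a membrane cytokine that organises lymphoid tissue, stood at higher levels in the off and cycled livers of both genotypes. It read -1.20, 2.83 and 2.13 in the Fah livers and -4.26, -0.27 and -1.75 in the FCR livers, so the genotypes overlapped across regimens but not within any pair (3.35 ± 0.32, adjusted p = 0.0088). Gimap3, a GTPase of the lymphocyte survival family, was well above background on all 3 Fah arrays and no FCR array and was at least 2.5-fold higher (adjusted p = 0.0436). The other 5 tested genes of that family did not pass: Gimap1 and Gimap5 differed by -0.32 and -0.45 and Gimap4 by 0.98, and the family's median of 0.01 has no settled sign. Zc3h12d, an RNA-binding protein of lymphocytes and macrophages, read -1.43, -1.24 and -0.47 in Fah and -5.21, -5.33 and -4.79 in FCR (4.06 ± 0.37, adjusted p = 0.0065). It was well above background on 2 of 3 FCR arrays, so its size is not exact.

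**Figure D2:**
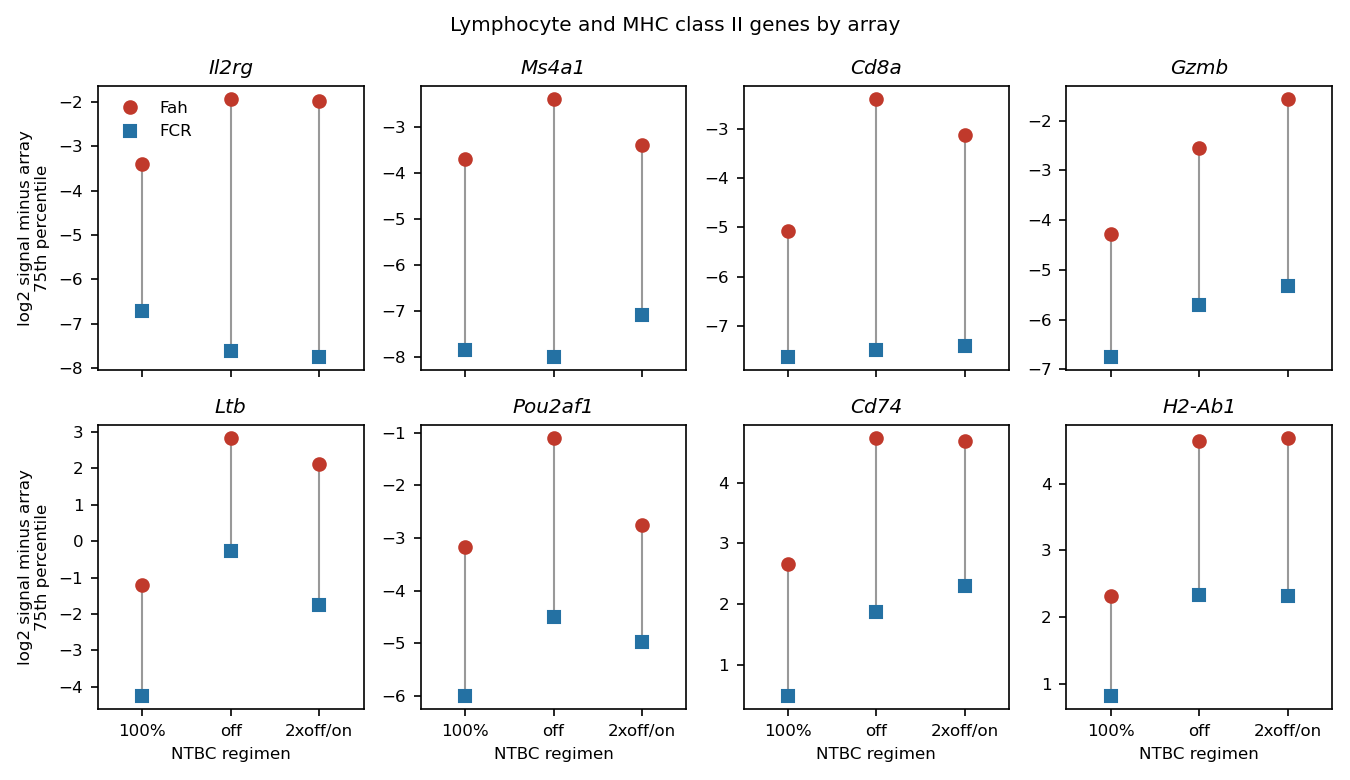
Level of 8 genes on each array (y axis, log2 signal minus the array's 75th percentile, with its own scale in each panel) by NTBC regimen (x axis); red circles are Fah livers, blue squares FCR livers, and a grey line joins the pair of a regimen. In each panel the red circle lies above the blue square at all 3 regimens, by 1.5 (H2-Ab1, continuous) to 5.76 (Il2rg, cycled).

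The lists of cell type markers show how far this went beyond the genes that passed. Of 28 T cell genes on the array 22 were tested; 2 passed, both higher, 11 were higher at an unadjusted p under 0.05 (4.86% of all genes were) and none lower, and the median difference was 0.97 against -0.11 over all tested genes. Of 21 B cell genes 18 were tested, 2 passed and 11 were higher at the unadjusted level, with a median of 1.26. Of 25 NK and cytotoxic genes 18 were tested, 1 passed, and 11 were higher and 1 lower at the unadjusted level; their median of 1.59 became -0.09 after normexp background correction, so this list has no settled direction. Between 2 and 6 of the tested genes of each of these lists were not well above background on any FCR array and entered the test through the Fah livers alone, so these medians are descriptions. In the T cell list 16, 25 and 22 of 28 genes were well above background in the continuous, off and cycled Fah livers and 14, 15 and 14 in the FCR livers. The log2 of their summed signal ran from 1.90 to 2.35 in Fah and from 1.09 to 1.33 in FCR.

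Several defining lymphocyte genes did not separate the genotypes. Chosen after their values were seen, Cd3e, Cd4 and Cd79a, chains of the T cell receptor complex, the helper T cell co-receptor and the B cell receptor, differed by -0.17 ± 0.32, -0.28 ± 0.40 and 0.03 ± 0.44 (adjusted p = 0.828, 0.78 and 0.98). Cd3e read -0.61, -1.76 and -1.14 in Fah and -0.74, -1.49 and -0.75 in FCR, well above background on all 6 arrays. Cd3d, another chain of the same complex, read -3.20, -2.04 and -2.32 in Fah and -5.78, -3.94 and -4.08 in FCR (2.08 ± 0.40, adjusted p = 0.126). The interleukin receptor chain Il2rb, a partner of Il2rg, differed by 1.89 ± 0.39 (adjusted p = 0.152), and Il2rg alone passed among the 17 tested genes of common gamma chain receptors and signalling. None of the 9 tested genes of antigen receptor assembly passed.

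A pair of genes of antigen presentation to helper T cells was also higher in Fah. Cd74, the invariant chain that escorts MHC class II molecules, read 2.66, 4.73 and 4.68 in the Fah livers and 0.48, 1.86 and 2.29 in the FCR livers (2.48 ± 0.29, adjusted p = 0.0194). H2-Ab1, the beta chain of the class II molecule I-A, read 2.32, 4.64 and 4.68 in Fah and 0.82, 2.33 and 2.32 in FCR (2.06 ± 0.30, adjusted p = 0.0476). Its continuous Fah liver read no higher than the injured FCR livers, so the H2-Ab1 gap is seen within pairs. Of 10 class II genes tested, these 2 passed, 9 were higher at an unadjusted p under 0.05, 2 of the 10 were not well above background on any FCR array and entered through the Fah livers alone, and the median, a description, was 1.17, 2.30 and 1.99 in the continuous, off and cycled pairs. H2-Aa, the partner chain of H2-Ab1, differed by 2.09 ± 0.33 (adjusted p = 0.0644). B cell markers, from cells that carry class II, had a log2 summed signal of 1.25, 3.79 and 3.09 in the Fah livers and 0.75, 2.65 and 1.27 in the FCR livers. Such a sum follows its brightest genes: Blnk read 3.32 and 2.41 in the off and cycled Fah livers and 2.12 and -0.03 in the FCR livers. Ms4a1 was not well above background on any FCR array. The sum is therefore not a measure of B cell number, and the part of B cells in the class II difference was not tested. Of 18 class I presentation genes none passed, and their median was -0.34.

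Other genes that were higher in Fah stood on none of the lymphocyte lists. Zfp874a, a zinc finger gene, read 1.48, 0.14 and 0.07 in Fah and -5.45, -5.37 and -5.36 in FCR (5.96 ± 0.42, adjusted p = 0.00394); 2 of its 3 FCR values were well above background, so its size is not exact. Rab6b, a small GTPase of Golgi transport best known from neurons, read -1.96, -0.58 and -0.93 in Fah and was not well above background on any FCR array, at least 23-fold higher (5.46 ± 0.50, adjusted p = 0.0065). Rbm45, an RNA-binding protein, read -0.03, -0.01 and -0.78 in Fah and -3.69, -3.94 and -4.89 in FCR (3.90 ± 0.34, adjusted p = 0.0065).

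Ttyh1, a membrane protein of the tweety family, had the least variable gap of all 45: its differences at the 3 regimens spanned 0.14, while its level moved from -1.68 to 0.61 in Fah and from -4.68 to -2.24 in FCR (2.92 ± 0.33, adjusted p = 0.0193). In 19 of the 45 genes the 3 differences lay within 1 log2 unit of each other. Fbxo44, a substrate receptor of a ubiquitin ligase (3.38 ± 0.43), Olig1, a transcription factor of oligodendrocytes (3.78 ± 0.51), Nipal2 (3.31 ± 0.41), Raet1e, a ligand of the NK receptor NKG2D (3.17 ± 0.36), and Ccnf, a cyclin that is part of a ubiquitin ligase (2.65 ± 0.37), were the others that passed upward, at adjusted p-values from 0.0193 to 0.0364. Fbxo44 was well above background on 1 of 3 FCR arrays and Olig1, Nipal2 and Raet1e on 2. The sizes of their differences are not exact.

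Several interferon-induced genes were lower in Fah liver, that is, higher where Rag2 and Il2rg were missing. Type I interferons act through transcription factors that bind an interferon-stimulated response element in the promoters of genes such as Isg15. The 250 bases before the start of Isg15 and Gbp3 are shown because both genes passed and both hold matches to the core letters of that element, GAAA followed by any 2 bases and GAAA again, searched on both strands and marked in capitals. They come from RefSeq on GRCm38.p6; Isg15 lies on the minus strand (chr4:156200819-156201068) and the Gbp3 start shown on the plus strand (chr3:142559794-142560043).
Isg15: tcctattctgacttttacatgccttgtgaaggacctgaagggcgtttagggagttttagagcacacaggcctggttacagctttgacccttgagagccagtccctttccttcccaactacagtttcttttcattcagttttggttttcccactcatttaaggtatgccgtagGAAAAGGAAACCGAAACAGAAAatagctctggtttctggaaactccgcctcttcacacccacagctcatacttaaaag
Gbp3: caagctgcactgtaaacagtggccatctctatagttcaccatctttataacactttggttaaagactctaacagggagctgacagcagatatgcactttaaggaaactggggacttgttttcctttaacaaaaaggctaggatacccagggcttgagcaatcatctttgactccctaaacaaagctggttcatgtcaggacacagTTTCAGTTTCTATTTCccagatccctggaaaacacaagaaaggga
The Isg15 window held 3 overlapping matches beginning 78 bases before the start and the Gbp3 window 2 beginning 45 bases before it. In windows of 250 bases before to 50 after the start, 3.99% of 27025 genes held a match, as did 3.81% of the 12260 tested genes with a promoter, 13 of 24 type I interferon genes (54.2%) and 10 of 14 interferon gamma genes (71.4%). Promoters were in the table for 19 of the genes lower in Fah, of which 2 held a match, and for 14 of those higher in Fah, of which 1, Ttyh1, did. Ifi44, Ifi44l and Slfn4 held none of these letters in their windows. A match is a description of the sequence and not a measured binding site.

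Isg15, a ubiquitin-like protein attached to others in antiviral defence, read 0.20, 1.88 and 1.80 in the Fah livers and 2.78, 4.03 and 5.15 in the FCR livers (-2.69 ± 0.32, 6.46-fold lower, adjusted p = 0.0194). All 3 Fah values lay below all 3 FCR values, the continuous FCR liver included. Ifi44, an interferon-induced cytoplasmic protein, read -2.46, 0.31 and -0.74 in Fah and 1.18, 2.62 and 2.27 in FCR (-2.99 ± 0.33, adjusted p = 0.0193). Its neighbour on the chromosome, Ifi44l, was not well above background on any Fah array and read -1.27, -0.76 and -3.55 in FCR, at least 17.1-fold lower in Fah (adjusted p = 0.0254). The 2 genes are related in sequence, and probes could share signal.

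Slfn4, a schlafen gene of myeloid cells induced by interferon, read -7.16, -3.23 and -3.96 in Fah and -3.17, 1.04 and -0.84 in FCR (-3.79 ± 0.39, adjusted p = 0.0148), and the highest Fah value lay just under the lowest FCR value. Gbp3, a guanylate-binding protein of cell-autonomous defence, read -0.41, 1.52 and 1.11 in Fah and 1.89, 3.41 and 2.93 in FCR (-2.0 ± 0.28, adjusted p = 0.0364). Its differences at the 3 regimens spanned 0.48.

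Across the type I interferon list all 32 genes on the array were tested. Of these 2 passed, Isg15 and Ifi44, both lower, 25 were lower at an unadjusted p under 0.05 (6.87% of all genes were) and none higher, and 26 were lower at all 3 regimens. The median was -1.02 in the continuous pair, -1.23 in the off pair and -1.15 in the cycled pair, so the pair with no tumour label had a median like those of the other pairs. Oasl2, an oligoadenylate synthetase-like protein, differed by -1.86 ± 0.29 (adjusted p = 0.0579), and Ifit1, which binds foreign RNA, by -1.85 ± 0.36 (adjusted p = 0.135). Of 18 interferon gamma genes 1 passed, Gbp3, and 9 were lower at the unadjusted level, with a median of -0.78. Cxcl9 and Cxcl10, chemokines that draw in activated T cells, differed by -1.84 ± 0.31 and -1.58 ± 0.31 (adjusted p = 0.0736 and 0.135). Macrophage markers were well above background for 19, 24 and 24 of 24 genes in the Fah livers and 21, 23 and 23 in the FCR livers, with a log2 summed signal from 5.74 to 8.0 and from 5.99 to 9.18, and their part in these differences was not tested. The lists were chosen with results of these data known, and their counts are no independent evidence of direction.

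**Figure D3:**
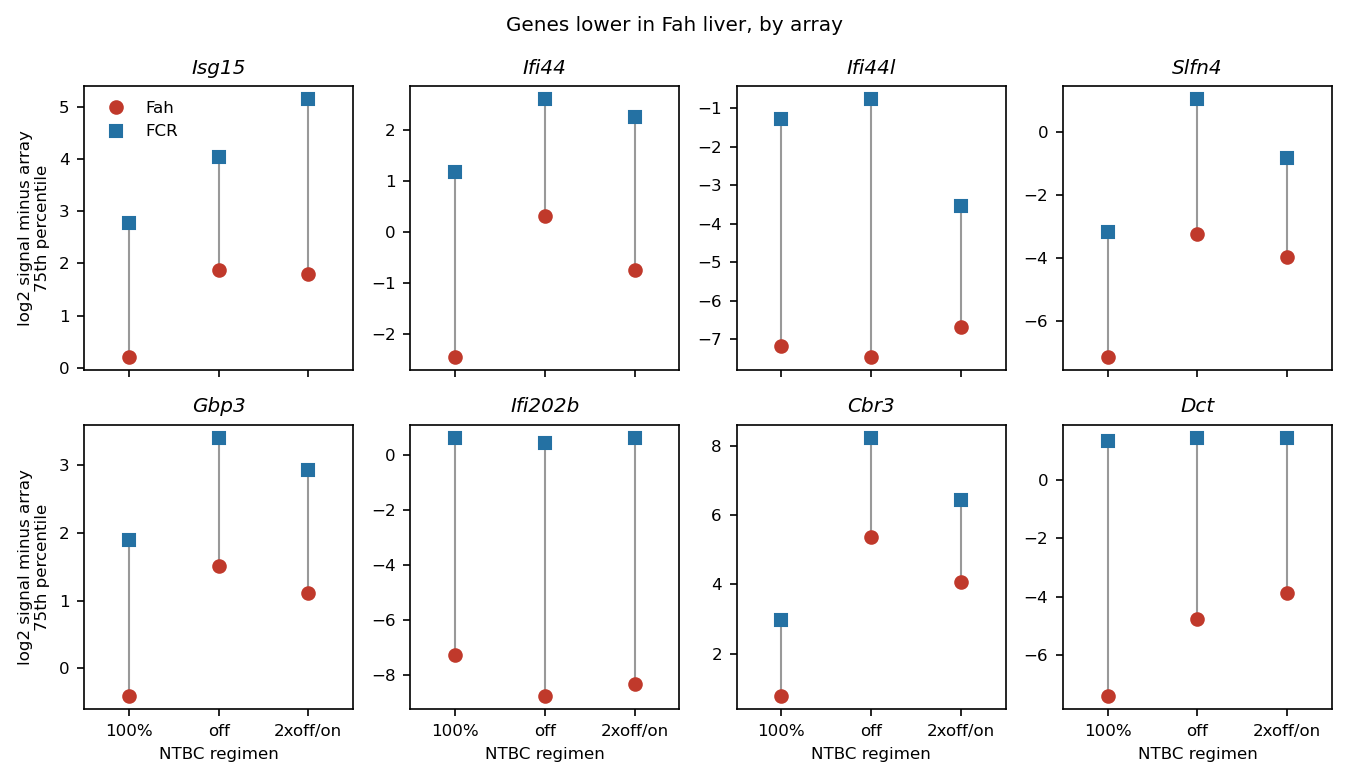
Level of 8 genes that were lower in Fah on each array (y axis, log2 signal minus the array's 75th percentile, with its own scale in each panel) by NTBC regimen (x axis); red circles are Fah livers, blue squares FCR livers, joined within a regimen by a grey line. The red circle lies below the blue square in all 3 pairs of each panel. In the FCR livers Ifi202b lies between 0.44 and 0.63 and Dct between 1.34 and 1.46.

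The smallest adjusted p of the comparison was that of Ifi202b, a member of the interferon-inducible Ifi200 family whose expression is known to vary among inbred mouse strains. It read 0.63, 0.44 and 0.63 in the FCR livers and was not well above background on any Fah array, at least 91.9-fold lower in Fah (-8.70 ± 0.43, adjusted p = 0.00051). The other 5 tested members of the family did not pass: Ifi213 differed by -2.26 ± 0.49 (adjusted p = 0.161), Ifi209 by -1.34 ± 0.58 (adjusted p = 0.426) and Ifi205 by -0.98 ± 0.52 (adjusted p = 0.494). Ifi202b was thus nearly level across regimens in FCR, whereas Ifi209 read -3.51, 0.97 and -1.82 there.

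Dct, dopachrome tautomerase of the melanin pathway, read 1.34, 1.46 and 1.43 in FCR and -7.41, -4.76 and -3.87 in Fah (-6.76 ± 0.61, adjusted p = 0.0065). Rrp7a, a ribosome biogenesis factor, read 1.54, 1.27 and 1.53 in FCR and -2.63, -2.38 and -2.14 in Fah (-3.83 ± 0.30, adjusted p = 0.0065). Gdpd3, a lysophospholipase, read -0.20, 1.99 and 0.52 in FCR and -4.72, -3.94 and -3.86 in Fah (-4.94 ± 0.40, adjusted p = 0.0065). In all 3 genes the groups were far apart, and among the FCR livers Dct and Rrp7a varied little. Dct was well above background on 2 of 3 Fah arrays, as were Slfn4, and Ren2 and Dusp4 described next, and the sizes of their differences are not exact.

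Imp4, a component of the complex that processes ribosomal RNA, was not well above background on any Fah array and read -3.62, -5.01 and -3.00 in FCR, at least 4.22-fold lower in Fah (adjusted p = 0.0229). Ccnb1ip1, known for its part in meiotic crossing over, read -1.60, -2.13 and -1.80 in FCR and was well above background on 1 of 3 Fah arrays (-4.41 ± 0.52, adjusted p = 0.0194), so its size is not exact. Ren2 is a second renin gene that only some inbred strains carry and that C57BL/6 mice are known to lack. Its probe read -1.69, -0.91 and 0.40 in FCR and -6.21, -3.96 and -3.48 in Fah (-3.82 ± 0.41, adjusted p = 0.0161), and near-identical Ren1 could share the signal. The labels give BL6 for all 6 livers, and strain was not tested.

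Dusp4, a phosphatase of MAP kinases, read -6.78, -4.07 and -3.26 in Fah and -2.11, 0.43 and 0.59 in FCR (-4.34 ± 0.37, adjusted p = 0.0065). It read higher in the off and cycled livers of each genotype and lower in Fah within each pair. Other genes that passed downward were Nat8f5 (-3.45), Cyp2g1 (-3.39), Sema3e (-3.12), Clmp (-2.97), Prim2 (-2.93), Sult5a1 (-2.72), Lrmda (-2.71), Nlrp12 (-2.69), Arsk (-2.60) and Dapk2 (-2.24) in log2 difference, at adjusted p-values from 0.0178 to 0.0408. Sema3e was well above background on 2 of 3 Fah arrays, so its size is not exact. For Arsk, Clmp and Nlrp12 another probe of the gene had the opposite sign (probe differences from -2.60 to 3.38, -2.97 to 0.21 and -2.69 to 1.43), so their direction holds for the probe with the highest mean.

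The genes that passed were spread over the genome. Of the 45, 44 could be placed by gene order in the RefSeq table of GRCm38.p6, on 19 chromosomes. The chromosome of Rag2 held 1, Rbm45, against 8.05% of all tested genes, and that of Il2rg held none other than Il2rg. Among the 100 tested genes on each side, none passed near Rag2 or near Il2rg, and 15.0% and 12.5% had an unadjusted p under 0.05, against 11.7% overall. There were 8 pairs of passing genes with at most 50 tested genes between them, of which Ifi44 and Ifi44l were adjacent and Imp4 and Prim2 had 7 between them. The same count was not made for genes that did not pass, so it does not show whether passing genes lie closer together than others.

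The NRF2 response defends cells against oxidants and electrophiles. Cbr3, a carbonyl reductase of that response, read 0.78, 5.36 and 4.08 in Fah and 2.98, 8.23 and 6.43 in FCR (-2.47 ± 0.31, adjusted p = 0.0231) and alone passed among the 29 tested genes. At an unadjusted p under 0.05, 19 were lower and none higher, and the median was -0.23 in the continuous pair, -1.71 in the off pair and -1.45 in the cycled pair. Hmox1, which breaks down heme, read 1.59, 3.63 and 4.17 in Fah and 2.78, 6.62 and 5.80 in FCR (-1.94 ± 0.39, adjusted p = 0.14). Gsta2, a glutathione transferase, read 5.17, 5.42 and 4.97 in Fah and 5.78, 8.63 and 7.81 in FCR (-2.22 ± 0.52, adjusted p = 0.211). The amino acid response genes Asns and Psat1 differed by -2.33 ± 0.36 and -1.89 ± 0.29 (adjusted p = 0.0597 and 0.0537).

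Whether the genotype difference itself changed with injury was asked by setting the mean difference of the off and cycled pairs against that of the continuous pair, with the spread between the off and cycled livers as error. In that limma test 0 of 15382 genes passed (0.0%; 332, 2.16%, at an unadjusted p under 0.05; smallest adjusted p = 0.795), and the 6 alternatives that were run gave 0 genes except normexp background correction, which gave 2, Lypd6b and Mup5. The values that follow are therefore descriptions of single pairs. Myom2, a muscle sarcomere protein, had the smallest p for a change upward: it read -7.24, -3.35 and -4.35 in Fah, not well above background in the continuous liver, and 3.11, -0.23 and -0.38 in FCR (unadjusted p = 0.00011, adjusted p = 0.8). Lypd6b had the smallest p downward and was well above background on 2 arrays alone, the off and cycled FCR livers, at 2.03 and 1.25 (unadjusted p = 5.17e-05). The fitted change was 7.58, 5.62 and 4.97 for Cd200r3, Ephb2 and Tm4sf20 and -7.95, -6.31 and -6.16 for Krt76, Nsun3 and Tex19.1, and none passed. The NRF2 list had a median change of -1.20 with 6 of 29 genes at the unadjusted level, whereas the type I interferon list had -0.13 with none.

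Several mast cell genes differed little in the continuous pair, where many were dim, and stood apart in the off and cycled pairs. Of 12 mast cell genes on the array, 5 were well above background in the continuous Fah liver and 6 in the continuous FCR liver. Cpa3, the mast cell carboxypeptidase, read -7.25, 0.63 and 2.72 in Fah and -7.62, -5.60 and -4.49 in FCR (change 6.35, adjusted p = 1.00). Mcpt4 and Cma1, mast cell chymases, read 3.88 and 3.40 in the cycled Fah liver and -3.47 and -2.63 in the cycled FCR liver. Over the 11 tested mast cell genes the median difference was -0.16, 2.19 and 3.97 in the continuous, off and cycled pairs, 6 had an unadjusted p under 0.05 for the change, and none passed. Not all followed: 1 of the 11, Hdc, the enzyme that makes histamine (chosen after its values were seen), was lower in Fah at all 3 regimens (-0.69). Gata2, chosen in the same way, differed by -0.28, -0.26 and 2.04 in the continuous, off and cycled pairs. Of the 11, 2 were not well above background on any FCR array. Apart from mast cells, Jchain, the joining chain of secreted immunoglobulin, read -1.36, 1.57 and 0.56 in Fah and -3.56, -5.45 and -4.96 in FCR (4.92 ± 0.78, adjusted p = 0.0644). It stood on a plasma cell list of 10 tested genes, of which none passed and 2 were higher at an unadjusted p under 0.05 (4.86% of all genes were). The median of that list, 0.26, became -0.04 after normexp background correction, and Fkbp11 and Derl3 differed by -0.56 and -0.21.

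By their medians, mitosis and matrix genes differed little in the continuous pair, though single members did, such as the matrix gene Col5a2 (-2.34). The 26 tested mitosis genes had medians of -0.17, 1.94 and 1.38 in the continuous, off and cycled pairs, with 16 higher at an unadjusted p under 0.05 in the paired fit (4.86% of all genes were) and none past the adjusted threshold. The 25 tested DNA replication genes had medians of -0.33, 0.61 and 0.77, with 3 higher at the unadjusted level and none passing. Top2a, the topoisomerase that untangles replicated DNA, read -4.68, 0.06 and 0.63 in Fah and -5.31, -4.44 and -1.12 in FCR. The 26 matrix genes had medians of 0.08, 1.61 and 1.15, with Col3a1, a fibrillar collagen, at 1.20, 4.99 and 3.90 in Fah and 0.84, 3.41 and 1.48 in FCR (1.45 ± 0.40, adjusted p = 0.27). Afp, the fetal hepatocyte protein used as a tumour marker, read 1.81, 7.85 and 8.37 in Fah and 2.46, 9.24 and 8.23 in FCR, below FCR in the off pair and close to it in the cycled pair (-0.63 ± 0.40, adjusted p = 0.544). Dlk1, another fetal liver gene, read 0.81 and 1.63 in the off and cycled Fah livers and -4.17 and -1.18 in the FCR livers (2.68 ± 0.76, adjusted p = 0.276).

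Among genes well above background on both arrays of a pair, the largest differences of single pairs included genes that did not pass over all 3. In the continuous pair Ttc26, a protein of cilia, was higher in Fah by 5.12, and Marco, a macrophage scavenger receptor, was lower by 3.78 (-0.55 against 3.23). Marco then read 3.90 against 7.62 in the off pair and 5.30 against 3.38 in the cycled pair, so its sign turned. In the off pair Chil3, a chitinase-like protein of activated macrophages, read 0.87 in Fah and 7.04 in FCR, against 1.78 and 1.38 in the cycled pair. In the cycled pair the major urinary protein genes Mup1, Mup5 and Mup6, secreted by hepatocytes, read 2.82, 0.30 and -1.89 in Fah and 8.23, 6.0 and 4.13 in FCR, whereas Mup1 read 10.10 and 10.04 in the continuous pair. These genes are near-identical copies, and their probes may read each other. Krt5, a keratin of stratified epithelium, read -3.61, -3.14 and -3.16 in Fah and -3.23, 1.59 and 2.07 in FCR, so it stood out in the off and cycled FCR livers.

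Across genes, the differences of the off and cycled pairs correlated at r = 0.47 (Spearman 0.37), those of the continuous and off pairs at 0.25 (0.27) and those of the continuous and cycled pairs at 0.17 (0.05). These are correlations over 15382 genes, which are not independent replicates, and they are given without a test. The spread of the differences was smallest in the continuous pair (SD 0.65, with 112 genes over 4-fold higher in Fah and 158 lower), against 1.24 in the off pair (763 and 668) and 0.88 in the cycled pair (357 and 252).

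**Figure D4:**
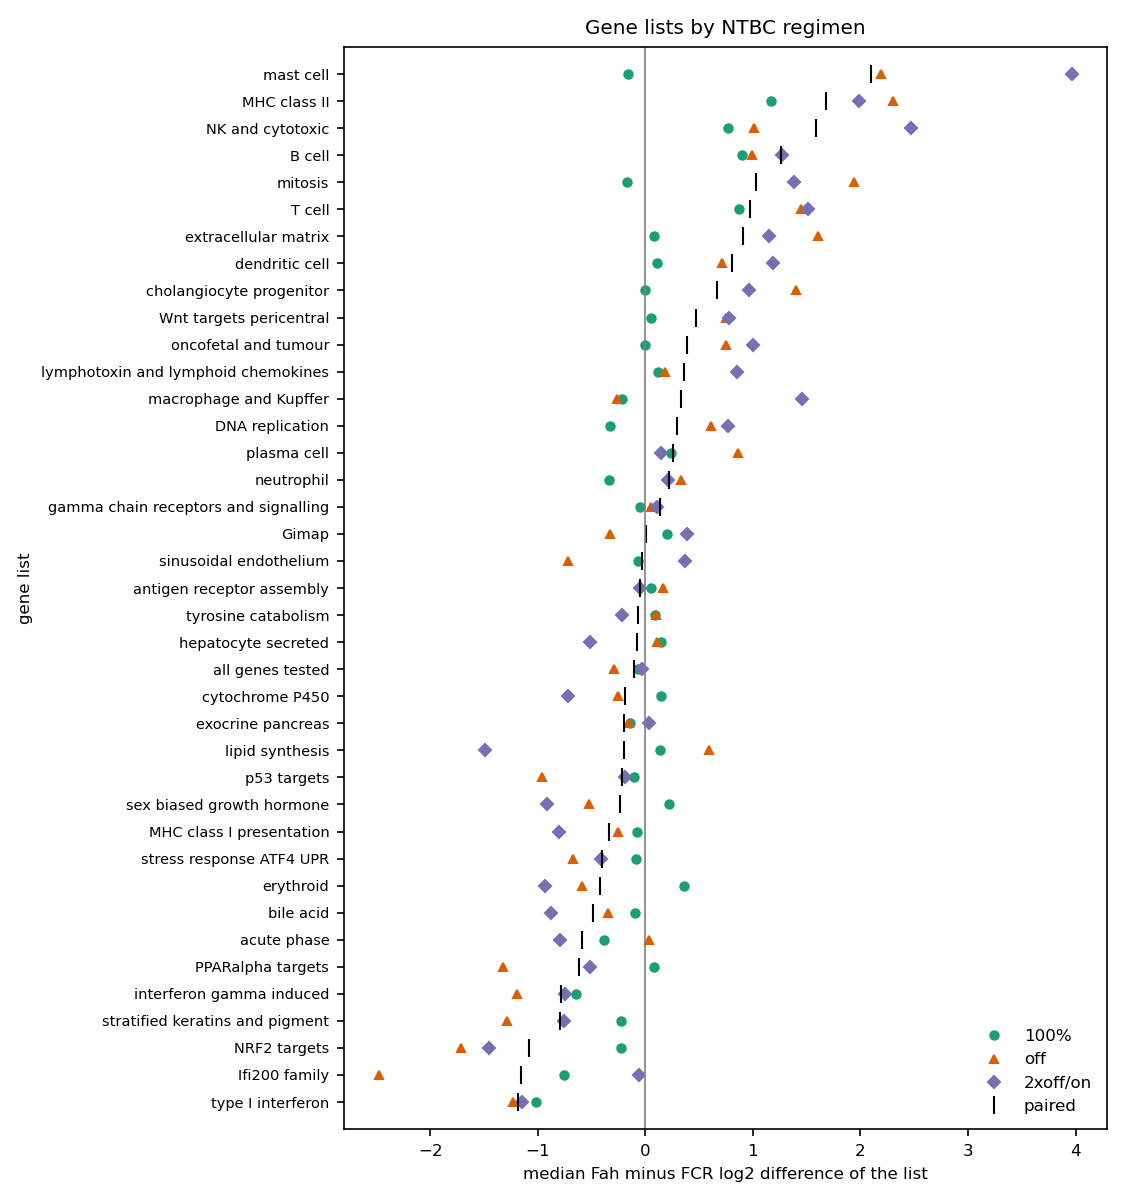
Median Fah minus FCR log2 difference (x axis) of the tested genes of 38 lists and of all genes tested (y axis), in the continuous (100%, green circles), off (orange triangles) and cycled (2xoff/on, violet diamonds) pairs and in the paired fit (black ticks). Type I interferon genes lie between -1.23 and -1.02 at all 3 regimens, while mast cell genes run from -0.16 to 3.97.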

How the data were processed

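Total liver RNA of 6 samples was labelled with Cy3 and hybridised to single-colour Agilent arrays. The deposited scanner files hold spot intensity, background-subtracted by the scanner software, Feature Extraction 10.7.3.1 per the file headers (the submitters' processing notes name version 10.5); the array design is annotated on mm9. The deposited series table holds log2 values, equalised between arrays by a method not given in the sources used here, and served as an alternative. Signals became log2 values minus each array's 75th percentile. Of 41145 probes, 26912 matched a gene by accession and 14233 did not, giving 18342 genes; the probe with the highest mean stood for a gene (6535 had several). Genes well above background on at least 2 of 6 arrays were tested (15382). limma 3.58.1 in R 4.3.3 fitted genotype with regimen as a block (2 residual degrees of freedom, median prior 6.07), with an intensity trend, two-sided, and Benjamini-Hochberg adjustment over all genes tested.

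The pairing comes from the sample titles. Deviations from the genotype means correlated at 0.77, 0.501 and 0.658 within a regimen and from -0.7 to 0.206 between regimens. The deviations of a gene cancel out within a genotype, so positive values within regimens bring lower ones between regimens. The values between regimens are therefore no separate check of the pairing. The continuous and off pairs shared slide 1 and the cycled pair lay on slide 2, so the regimen block also takes out slide. Data were simulated with 200 of 15382 genes changed, in 5 draws of each size. The paired fit recovered 23.5% of changes of 2 log2 units, 98.7% of 4 and 100% of 6, with 6%, 4.55% and 4.58% false calls. The simulated noise was independent between genes and alike in all pairs, as the model assumes. These rates therefore do not measure false calls among the genes that passed in the real data. The genes and the 38 gene lists were chosen with earlier results of these data known. The genes named were drawn from all that passed (60 or fewer), up to 4 members of each list with the smallest p, the 5 largest differences each way in a single pair among genes well above background on both its arrays, the 5 smallest p each way for the change with injury, and Il2rg, Rag2, Fah and Afp; exceptions are stated, and not all genes so drawn are printed. Alternatives covered the block, background correction, scaling, filter, floor, probe choice, trend, the deposited table and leaving out each pair. 1 gene that passed is not reported here.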

Additional observations from a re-analysis of the deposited data

How the results depend on the processing

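Against 45 genes that passed in the paired comparison, the fit with no replicate block gave 1 gene, slide as the block 0 (529 at an unadjusted p under 0.05), and regimen as a random block 23, of which 22 were among the 45. The block therefore decides the count, and the pairing comes from the sample titles. Normexp background correction gave 349 genes (113 higher and 236 lower, 36 of the 45 among them), quantile normalization 13, array median scaling 77, no filter 73, a filter at all 6 arrays 22 and at 3 arrays 46. Values floored at a common level gave 0 (989 at the unadjusted level), the mean of a gene's probes 27, no intensity trend 29, the authors' deposited log2 values 10, and each probe tested on its own 101 of 30428, an alternative chosen after seeing the data. Leaving out 1 pair gave from 0 to 1015 genes. All tested members of the 45 kept their direction in the gene-level alternatives, except that Arsk turned to 0.39 with the mean of its probes. Gdpd3, Ifi202b, Rbm45 and Rrp7a passed in 12 settings and Cd8a in 4. The change with injury gave 0 genes in the main fit and in 5 alternatives, and 2 with normexp. List medians changed sign in some alternatives for 12 of the 38 lists, among them the NK list (1.59 to -0.09 with normexp) and otherwise lists with medians between -0.2 and 0.33; the cause was not tested. The 2 residual degrees of freedom limit what can pass.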

Other observations

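Acute phase genes, which hepatocytes switch on in inflammation, were not all at the same level in the livers on continuous NTBC. Saa3 read 0.99, 1.64 and 2.5 in the continuous, off and cycled Fah livers and 3.96, 2.98 and 5.87 in the FCR livers (-2.56 ± 0.41, moderated SE, n = 3 pairs, limma adjusted p = 0.0651). Saa2 read 3.73 and 7.07 in the continuous pair, 4.95 and 4.81 in the off pair, and 5.18 and 7.77 in the cycled pair, Fah first (adjusted p = 0.32). Of 17 tested acute phase genes none passed and 7 were lower in Fah at an unadjusted p under 0.05 (6.87% of all genes were). Their median was -0.38, 0.03 and -0.79 in the continuous, off and cycled pairs. Il6, an inducer of that response, read -0.47 and -0.71 in the off and cycled FCR livers and -4.29 and -4.15 in the Fah livers (-2.64 ± 0.61, adjusted p = 0.203).

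Among genes of hepatocytes around the central vein, Slc1a2, a glutamate transporter, read 3.14, 1.47 and 1.03 in Fah and 2.16, -2.47 and -2.45 in FCR (2.80 ± 0.53, adjusted p = 0.127), and Oat, ornithine aminotransferase, read 5.84, 6.04 and 5.19 against 4.77, 2.53 and 3.15 (2.21 ± 0.46, adjusted p = 0.148). Slc1a4, of the same list, read -2.12, 1.86 and 1.69 against -2.39, 3.41 and 3.67 (-1.09 ± 0.44, adjusted p = 0.402). None of the 18 tested genes of that list passed. Of the bile duct and progenitor genes, Epcam read -3.79, 1.26 and -0.41 in Fah and -5.20, -1.15 and -2.59 in FCR (2.00 ± 0.36, adjusted p = 0.105), whereas Ggt1 read -6.60, -0.87 and -1.27 against -5.23, 2.72 and 2.62 (-2.95 ± 0.50, adjusted p = 0.0852). The macrophage list had a median of -0.22, -0.26 and 1.46 in the continuous, off and cycled pairs, and its paired median of 0.33 became -0.28 without the cycled pair. Lyve1, a marker of sinusoidal endothelium, read -0.68, -0.28 and -0.33 in Fah and -0.23, 4.19 and 2.40 in FCR (-2.55 ± 0.64, adjusted p = 0.246). The 16 tested genes of that cell type had a median of -0.03 that turned positive in 3 alternatives, none passed, and Clec4g and Pecam1 differed by 0.65 and 0.44.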
